A study of Arabidopsis thaliana with 12 samples.

Results

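The genes described here are AT5G65320 and its relatives in subgroup Ia of the basic helix-loop-helix (bHLH) transcription factors of Arabidopsis thaliana. They were taken by locus: AT5G65320, AT1G72210, AT1G22490, AT5G46690, AT4G01460, AT3G61950 and AT2G46810. Of these 7 genes, 6 had a named row and were among the 16550 genes tested, and AT5G46690, also called bHLH071, was not analysed here. AT1G22490 is also called bHLH094 and AT1G72210 is also called bHLH096. AT5G65320 was picked because earlier results of these data showed it rising with dexamethasone, and the relatives were picked by family.

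All samples were roots of 1 transgenic line, 35S::LBD16:GR in the arf7-2 arf19-5 double mutant background, at 5 days of age. The transgene puts a fusion of LBD16 with the glucocorticoid receptor (GR) under the 35S promoter, which is active in most cell types. Both mutated genes, ARF7 and ARF19, encode auxin response factors acting upstream of LBD16 in lateral root initiation. Roots were treated for 4 hours with 2 µM dexamethasone and 10 µM cycloheximide together (DEX+CHX), with 10 µM cycloheximide (CHX), with 2 µM dexamethasone (DEX), or with a solvent mock, with 3 arrays for each of these 4 treatments. No array came from roots without the fusion, so an effect of DEX that does not need LBD16 cannot be told apart from one that does. The labels name 3 independent sets of RNA per treatment, and the number of arrays limits the precision.

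bHLH factors bind DNA as pairs, through a basic stretch that contacts the DNA and a helix-loop-helix that joins the partners. Subgroup Ia also holds SPCH, MUTE and FAMA, which act one after another in the stomatal lineage of the shoot together with the bHLH partners ICE1 and SCRM2, and the FAMA protein was found to bind bHLH071. Dexamethasone lets a receptor fusion enter the nucleus, and cycloheximide blocks protein synthesis, so a rise with DEX under CHX is commonly read as one that needs no newly made protein. Cycloheximide also raises many short-lived transcripts by itself.

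LBD16 itself ran from 9.29 to 9.67 on the log2 scale over the 12 arrays, and these probes can read both the transgene and the native gene. Its DEX arrays, at 9.29 to 9.38, all lay below its mock arrays, at 9.45 to 9.56. That log2 difference was -0.17 (limma adjusted p = 0.563). Replicate arrays of a treatment correlated at 0.992 to 0.994 across the genes tested. The tissue check was thin. Of 15 root markers 2 were measured, the root hair expansins EXPA7 and EXPA18, at 7.42 to 8.67 and 9.02 to 10.60. Of 6 guard cell markers 1 was measured, AT1G22690, at 2.15 to 2.89. Of 7 markers of green tissue 2 were measured, RCA at 6.24 to 7.75 and PORB at 3.96 to 6.03, so green tissue transcripts were read in these root samples. In samples of roots, a change in the share of cells of a type and a change in the RNA per cell cannot be told apart.

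AT5G65320 had the highest levels in the roots that received dexamethasone, with or without cycloheximide. Its log2 values were 8.93, 8.94 and 8.58 with DEX+CHX, 6.47, 6.84 and 6.67 with CHX, 8.72, 8.17 and 8.12 with DEX, and 5.17, 5.42 and 5.87 with mock. All 6 arrays with DEX lay above all 6 without it. Among the arrays without DEX, the 3 CHX arrays lay above the 3 mock arrays. The means were 8.82 ± 0.20 with DEX+CHX, 6.66 ± 0.18 with CHX, 8.34 ± 0.33 with DEX and 5.49 ± 0.36 with mock (SD, n = 3 each). The order was therefore DEX+CHX, DEX, CHX and mock, and only the first 2 overlapped, differing by 0.48 on the log2 scale.

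**Figure D1:**
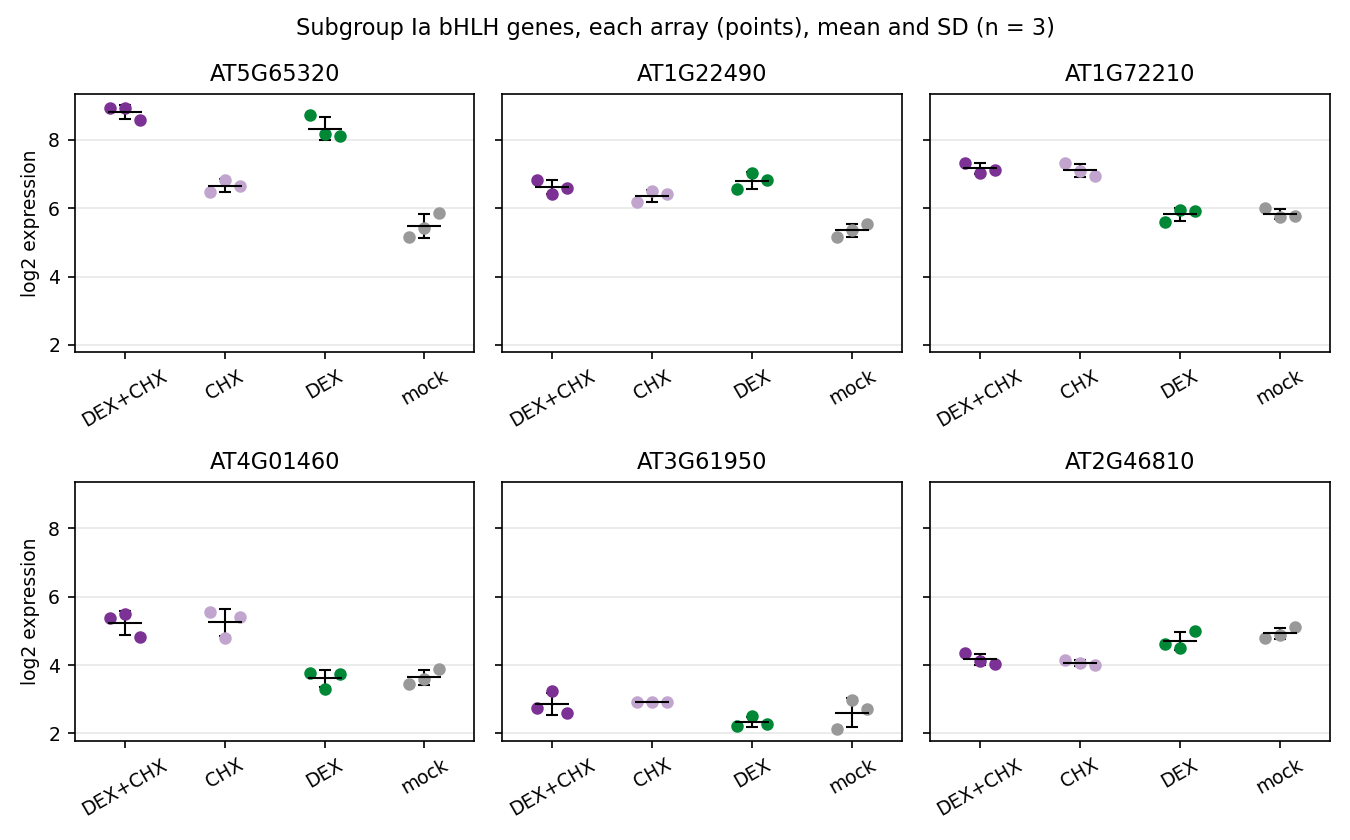
Log2 expression of the 6 measured subgroup Ia genes in every array. Points are arrays, black bars are the mean and SD of 3 arrays, and treatments run from DEX+CHX on the left to mock on the right. AT5G65320 is high in both DEX treatments, AT1G22490 is low in mock alone, AT1G72210 and AT4G01460 are high in both CHX treatments, and AT2G46810 is low in both.

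Because AT5G65320 was picked for its rise with DEX, its DEX values are given as a description. The mean was 7.19-fold higher with DEX than with mock, a log2 change of 2.85, which ranked 4 from the top among 16550 genes. It was 4.46-fold higher with DEX+CHX than with CHX, a log2 change of 2.16, which ranked 10 from the top. The log2 change with DEX was smaller by 0.69 when CHX was present, and it was measured from a CHX level that was already above mock. Leaving out single arrays gave 2.65 to 3.04 without CHX and 2.06 to 2.27 with CHX.

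With cycloheximide alone AT5G65320 was 2.25-fold higher than with mock, a log2 change of 1.17. This comparison uses the same 3 mock arrays as the rise for which the gene was picked, so its value is also a description. Changes with CHX were common, since limma called 54.9% of all genes tested, 24.2% higher and 30.7% lower. When DEX was present, CHX went with a smaller difference, 0.48 on the log2 scale between DEX+CHX and DEX, and the arrays of these groups overlapped.

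AT1G22490 was the relative that also rose with dexamethasone. Its log2 values were 6.55, 7.04 and 6.82 with DEX, against 5.16, 5.38 and 5.54 with mock. All 3 DEX arrays lay above all 3 mock arrays, by at least a full log2 unit. It was 2.72-fold higher with DEX (1.44 ± 0.16 SE on the log2 scale, 3 arrays per group, adjusted p = 0.000463 by limma), which ranked 39 from the top among 16550 genes. Without replicate 3 of every treatment the change was 1.53 and missed the threshold (adjusted p = 0.0545), with 2 arrays per treatment left in the fit.

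With protein synthesis blocked, AT1G22490 showed no such separation. Its log2 values were 6.82, 6.41 and 6.60 with DEX+CHX, against 6.17, 6.51 and 6.41 with CHX. The groups overlapped, and the difference of 0.24 missed the threshold (95% interval -0.10 to 0.59, limma adjusted p = 1.00). The change without CHX lay above this interval. The difference between both DEX effects was -1.20 ± 0.22 SE and was not called over all genes (adjusted p = 0.0851, unadjusted p = 0.00019). With a trended and robust variance it was called (adjusted p = 0.028), and over the alternatives other than thresholds its adjusted p ran from 0.028 to 0.633.

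CHX alone had raised AT1G22490 above its mock level. It was 2.01-fold higher with CHX than with mock (1.01 ± 0.16 SE, limma adjusted p = 0.000153), and its 3 CHX arrays lay above all mock arrays. Its level with both agents was 6.61 ± 0.21 and its level with DEX alone 6.81 ± 0.24 (SD, n = 3 each). Those groups overlapped, with a difference of -0.20 that missed the threshold (adjusted p = 0.324) and that was 0.15 after quantile normalization. The order of its levels was DEX, DEX+CHX, CHX and mock, and mock alone stood apart from its neighbour.

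**Figure D2:**
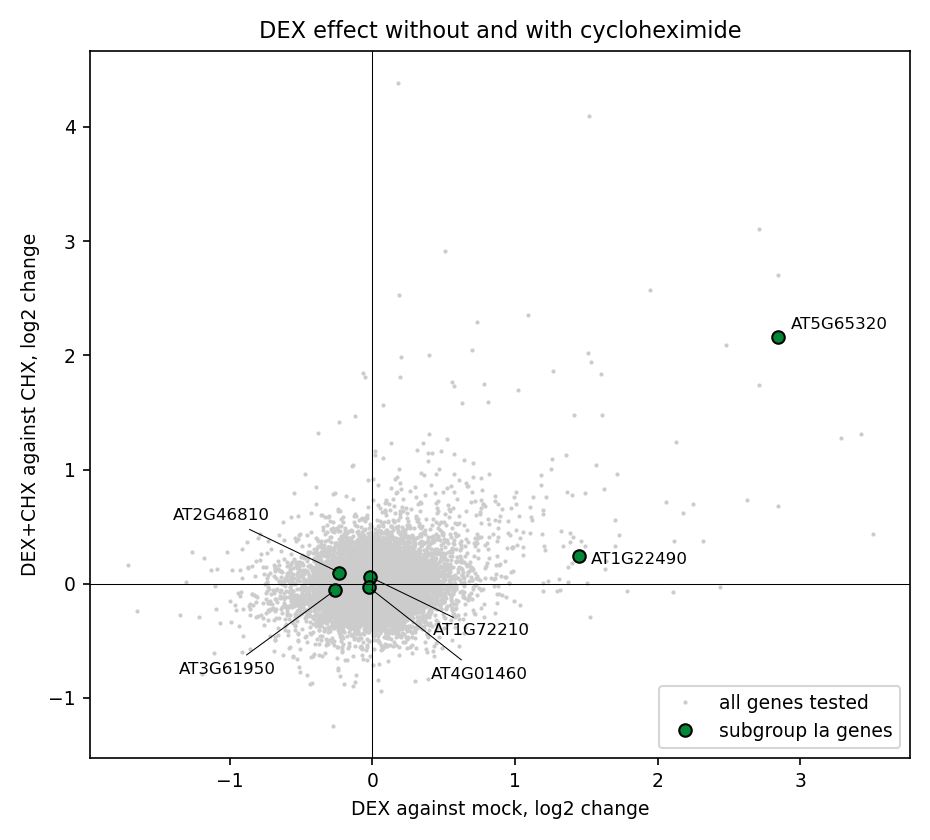
The log2 change with DEX without cycloheximide (horizontal axis) against that with cycloheximide present (vertical axis), for all genes tested in grey and the subgroup Ia genes in green. AT5G65320 lies far from 0 on both axes (2.85 and 2.16), AT1G22490 on the horizontal axis (1.44 and 0.24), and the other 4 lie near the origin.

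The other 4 measured relatives did not pass the test with DEX. Among the 5 relatives, 1 rose and none fell for DEX against mock, where 1.52% of all genes were called, 1.11% higher and 0.411% lower. Their median log2 change was -0.03, beside 0.03 for all genes. The intervals show what the arrays could have missed. For AT1G72210 the change with DEX was -0.02 (95% interval -0.32 to 0.29), for AT4G01460 -0.03 (-0.53 to 0.47), for AT3G61950 -0.26 (-0.71 to 0.18) and for AT2G46810 -0.23 (-0.54 to 0.08). Each of these intervals ends below the change of AT1G22490. For DEX+CHX against CHX none of the 5 relatives was called by limma, none of them had an unadjusted p under 0.05, and 0.592% of all genes were called, 0.55% higher and 0.0423% lower. The changes of the same 4 genes ran from -0.06 to 0.10.

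The difference between both DEX effects was called for none of the 5 relatives by limma, and for 0.127% of all genes, 0.0423% upward and 0.0846% downward. With a trended and robust variance it was called for 1, AT1G22490. The unadjusted p was under 0.05 for AT1G22490 alone among them. Arrays of the DEX and mock groups did not overlap for 1 of the 5 relatives, AT1G22490, higher with DEX, while 15.2% of all genes showed no overlap, 9.69% with DEX higher and 5.49% with DEX lower. Arrays of the DEX+CHX and CHX groups did not overlap for 0 of the 5 relatives, beside 9.69% of all genes, 5.12% with DEX+CHX higher and 4.57% with DEX+CHX lower.

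For CHX against mock, 3 of the 5 relatives (AT4G01460, AT1G72210 and AT1G22490) rose and 1 (AT2G46810) fell. Of all genes 54.9% were called, 24.2% higher and 30.7% lower. Counted with SPCH, MUTE and FAMA, of which none was called, this was 4 of 8 relatives, a share near that of all genes. Those added genes were all among the dimmest 30% of genes tested. Arrays of CHX and mock did not overlap for 4 of the 5 relatives, 3 higher and 1 lower, beside 60.2% of all genes, 26.5% higher and 33.7% lower. The relatives' median log2 change was 1.01, beside -0.08 for all genes tested. The scaling of the arrays bears on this comparison, because quantile normalization put the median of all genes at 0.23 and centring put it at -0.19. Called genes were higher in 44% of cases with the values as deposited, in 64.3% after quantile normalization and in 36.3% after centring. The 3 relatives that rose and the 1 that fell kept their direction and their call under both scalings. Markers of tissues also moved with CHX, and their part in these changes was not tested. RCA (-0.87), EXPA7 (-0.40) and EXPA18 (-1.05) fell, PORB stood at 0.60 (adjusted p = 0.0636), and the guard cell marker AT1G22690 stood at 0.18 (adjusted p = 0.475).

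AT4G01460 and AT1G72210 were high with cycloheximide, whether or not DEX was present. AT4G01460 read 5.37, 5.50 and 4.82 with DEX+CHX, 5.56, 4.80 and 5.41 with CHX, 3.77, 3.31 and 3.75 with DEX, and 3.43, 3.58 and 3.89 with mock. Every array with CHX lay above every array without it. The gene was 3.07-fold higher with CHX than with mock (1.62 ± 0.23 SE, limma adjusted p = 6.62e-05) and 3.07-fold higher with DEX+CHX than with DEX (1.62 ± 0.23 SE, adjusted p = 6.59e-05).

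AT1G72210 read 7.34, 7.05 and 7.12 with DEX+CHX, 7.31, 7.09 and 6.93 with CHX, 5.61, 5.95 and 5.91 with DEX, and 6.01, 5.73 and 5.77 with mock. It split the arrays in the same way. The gene was 2.41-fold higher with CHX than with mock (1.27 ± 0.14 SE, limma adjusted p = 6.72e-06) and 2.54-fold higher with DEX+CHX than with DEX (1.34 ± 0.14 SE, adjusted p = 4.09e-06). For both genes the arrays of DEX+CHX and CHX overlapped, and so did those of DEX and mock.

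AT2G46810 went the other way. It read 4.36, 4.12 and 4.02 with DEX+CHX, 4.15, 4.06 and 3.99 with CHX, 4.60, 4.51 and 4.99 with DEX, and 4.80, 4.88 and 5.12 with mock. Every array with CHX lay below every array without it. For CHX against mock it fell by 0.87 on the log2 scale (SE 0.14, limma adjusted p = 0.000215), and by 0.39 after quantile normalization (adjusted p = 0.0382). For DEX+CHX against DEX it fell by 0.54 (SE 0.14, adjusted p = 0.00634). That second call did not survive quantile normalization (-0.04, adjusted p = 0.846) or leaving out replicate 3 of every treatment (-0.32, adjusted p = 0.0676).

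AT3G61950 was the dimmest member, at 2.60 to 3.23 with DEX+CHX, 2.91 to 2.92 with CHX, 2.22 to 2.51 with DEX and 2.13 to 2.96 with mock. It was the 1 member among the dimmest 30% of genes tested, whose means reached 4.15, and low values have no stated floor in these files. Neighbouring treatments in the order of its levels all overlapped. It was not called for CHX against mock (0.32, 95% interval -0.13 to 0.76, limma adjusted p = 0.221) but was after quantile normalization (0.62, adjusted p = 0.0156). For DEX+CHX against DEX it was called at 0.52 (adjusted p = 0.0473), and that call was lost on leaving out any of 8 single arrays (adjusted p at most 0.196), and with centred arrays (0.0961), all rows tested (0.0546), a trended and robust variance (0.0524) or replicate 3 of every treatment left out (0.112). It also missed both stricter thresholds, an adjusted p of 0.01 and a fold minimum of 2.

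For DEX+CHX against DEX, 3 of the 5 relatives were called higher and 1 lower, beside 55.8% of all genes, 23.3% higher and 32.5% lower. The 3 were AT4G01460, AT1G72210 and the weak call of AT3G61950. Counted with the dim SPCH, MUTE and FAMA, 4 of 8 relatives were called. Arrays of DEX+CHX and DEX did not overlap for 4 of the 5 relatives, 3 higher and 1 lower, beside 60.9% of all genes, 25.3% higher and 35.6% lower. Among all called genes of this comparison 41.8% were higher, against 64.1% after quantile normalization and 34.9% after centring.

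**Figure D3:**
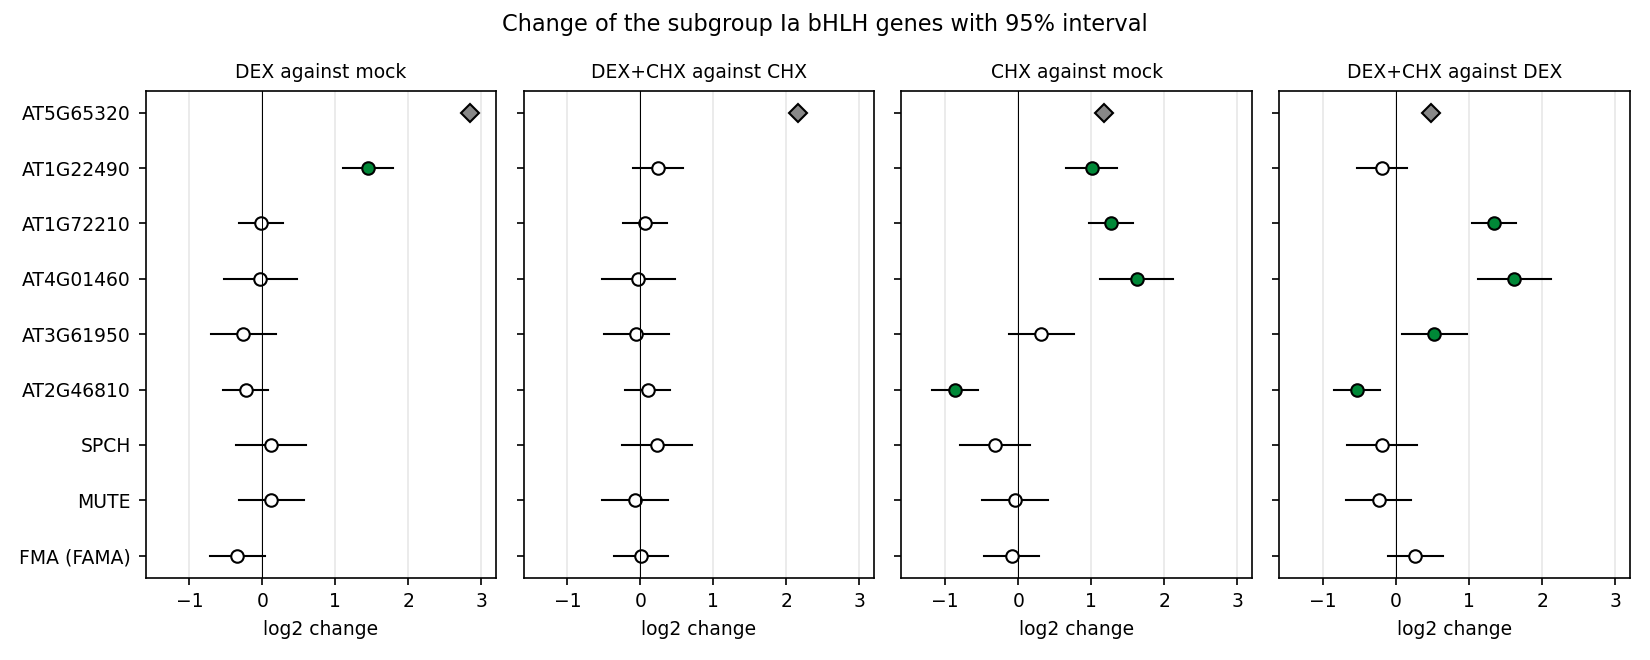
Log2 changes of the 6 subgroup Ia genes and of SPCH, MUTE and FMA (FAMA) in 4 comparisons, with 95% intervals as lines. Filled circles passed an adjusted p of 0.05 and open circles did not. Diamonds mark AT5G65320, which is drawn without a test or interval. AT1G22490 is the only tested gene drawn that passed for DEX against mock, and none passed for DEX+CHX against CHX.

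The stomatal members of the subgroup were dim and passed no test. SPCH, which starts the stomatal lineage, ran from 2.21 to 3.32 over the 12 arrays, and MUTE, which acts next, from 2.05 to 2.84. FMA, the RefSeq symbol of FAMA, which drives guard cell formation, ran from 2.24 to 2.96. The mean of each lay among the dimmest 30% of genes tested. None of the 3 was called in any of the 4 treatment comparisons. Their changes with DEX were 0.12 for SPCH (95% interval -0.36 to 0.60), 0.12 for MUTE (-0.33 to 0.57) and -0.35 for FMA (-0.72 to 0.03). The 3 DEX arrays of FMA, at 2.24 to 2.56, lay just below its mock arrays, at 2.60 to 2.94, with an adjusted p of 0.536 by limma. With CHX present the changes were 0.23, -0.07 and 0.01.

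ICE1 and SCRM2, their partners, were not analysed here. Of 15 other genes of stomatal development 1 was measured, STOMAGEN, whose peptide promotes stomata. It read 4.48, 4.04 and 3.65 with DEX, against 3.15, 3.83 and 3.30 with mock. The groups overlapped, and the change of 0.63 missed the threshold (95% interval 0.16 to 1.10, limma adjusted p = 0.263). The guard cell marker AT1G22690 stood at 0.01 with DEX (adjusted p = 0.996) and -0.13 with DEX under CHX (adjusted p = 1.00). For DEX against mock the green tissue marker RCA had a log2 difference of -0.41 (limma adjusted p = 0.45, unadjusted p = 0.0427). Its DEX arrays all lay below its mock arrays. PORB had a difference of -0.60 (adjusted p = 0.42, unadjusted p = 0.0342), with overlapping arrays, and neither gene was called. In the same comparison the root hair marker EXPA7 stood at 0.41 (adjusted p = 0.0996, unadjusted p = 0.0022), with its DEX arrays all above its mock arrays. For DEX+CHX against CHX EXPA7 stood at -0.26 (adjusted p = 0.793), and its difference of both DEX effects was -0.67 (adjusted p = 0.163, unadjusted p = 0.000718). The other root hair marker, EXPA18, stood at 0.07 for DEX against mock (limma adjusted p = 0.923), with overlapping arrays. It stood at -0.21 for DEX+CHX against CHX (unadjusted p = 0.0948), and its difference of both DEX effects was -0.28 (adjusted p = 0.931). The part of these markers in the changes of the subgroup was not tested.

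Other bHLH genes were read for comparison. Of 34 genes whose RefSeq symbol or synonym names a bHLH, 9 were measured, AT1G22490 and AT1G72210 among them. For DEX against mock AT1G22490 was the 1 called, and the median log2 change of the 9 was -0.02, beside 0.03 for all genes. BHLH92 stood at 0.86 without passing (adjusted p = 0.267, unadjusted p = 0.0139), with its DEX arrays all above its mock arrays, and bHLH34 stood at -0.38 (adjusted p = 0.457, unadjusted p = 0.0442). For DEX+CHX against CHX none was called by limma and none had an unadjusted p under 0.05. For CHX against mock 3 rose and 4 fell, beside 24.2% and 30.7% of all genes. The largest rise was that of BHLH92, at 9.54 to 9.97 with CHX and 2.04 to 2.25 with mock (log2 change 7.66, adjusted p = 9.04e-10). The largest falls were those of the iron-deficiency factors BHLH101 (-1.53, adjusted p = 2.1e-05) and bHLH115 (-1.30, adjusted p = 2.28e-06), and bHLH104 fell by 0.40 (adjusted p = 0.0153). ILR3, which acts with them in iron homeostasis, was called at -0.36 (adjusted p = 0.0407).

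Of 17 bHLH genes known for roles in root vascular tissue, root hairs and root growth, 5 were measured. None of the 5 was called with DEX, without or with CHX, and their changes for DEX against mock ran from -0.44 for AT2G41130 (adjusted p = 0.114) to -0.01 for LHW, which acts in vascular cell division. AT2G41130 had an unadjusted p of 0.00281. For CHX against mock AT3G56770 (1.38) and AT2G41130 (0.91) rose, LHW (-0.81) and AT2G14760 (-1.05) fell, and UPB1, a regulator of root growth, stood at 0.08 (adjusted p = 0.641).

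Of the 2 protein-coding genes on each side of AT5G65320 in the TAIR10.1 annotation, 3 were measured, and none passed the test with DEX. AT5G65300 stood at -0.10, AGL78, which encodes a MADS-box factor, at 0.70 and AT5G65340 at 0.06 for DEX against mock, none called (adjusted p = 0.964, 0.334 and 0.963). Under CHX they stood at 0.06, 0.81 and -0.14 with DEX, none called. Both changes of AGL78 were in the direction of AT5G65320 and were the highest among the measured neighbours of all members, with 95% intervals of 0.12 to 1.27 for DEX against mock and 0.23 to 1.38 for DEX+CHX against CHX. CHX alone raised all 3, by 3.74 for AT5G65300, 3.86 for AGL78 and 0.71 for AT5G65340, beside 24.2% of all genes called higher. Beside AT1G22490, AT1G22470 stood at -0.08 and AT1G22480 at -0.24 for DEX against mock (adjusted p = 0.894 and 0.686). Around all 7 genes taken by locus, 15 of 28 such neighbours were measured, and none was called for DEX against mock or for DEX+CHX against CHX. With CHX against mock 10 of these 15 were called, some higher and some lower, beside 54.9% of all genes.

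Within the subgroup the profiles over the 12 arrays fell into different shapes. AT5G65320 and AT1G22490 correlated at r = 0.853, and AT1G72210 and AT4G01460 at r = 0.922. AT2G46810 correlated negatively with every other member, from -0.368 with AT5G65320 to -0.852 with AT1G72210. AT5G65320 correlated at 0.29 with AT1G72210 and at 0.294 with AT4G01460. These coefficients describe 12 arrays that share 4 treatments, so they mostly restate the treatment means.

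The 10 genes with the profile most like that of AT5G65320 had r from 0.924 to 0.975. AT4G34500 was the most alike (r = 0.975), with values of 9.34, 9.42 and 9.49 with DEX+CHX, 8.73, 8.63 and 8.80 with CHX, 9.32, 9.18 and 9.10 with DEX, and 8.39, 8.44 and 8.44 with mock. Its arrays were ordered by treatment as those of AT5G65320 were, over a narrower range, with log2 changes of 0.77 for DEX against mock and 0.69 for DEX+CHX against CHX. WES1, also called GH3.5, which joins auxin to amino acids, was also close (r = 0.957). It read 10.64, 10.62 and 10.53 with DEX+CHX, 8.57, 8.50 and 8.47 with CHX, 10.63, 10.63 and 10.45 with DEX, and 8.28, 7.97 and 8.02 with mock.

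The others were AT5G08480 (r = 0.957), AT3G61160 (0.957), AT3G46720 (0.955), AT3G57960 (0.948), AT2G43590 (0.946), AT5G55800 (0.938), AT3G09760 (0.924) and AT3G44820 (0.924). All 10 had positive changes with DEX, from 0.47 to 2.84 without CHX and from 0.27 to 2.70 with it. The genes were chosen by correlation with AT5G65320 over these same arrays, so a rise with DEX largely follows from the choice. Their changes for CHX against mock were also positive, from 0.10 to 0.64, and the CHX and mock arrays were part of the same choice. AT5G65320 itself changed by 1.17 for CHX against mock, more than any of the 10, but a correlation does not weigh the size of a change.

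**Figure D4:**
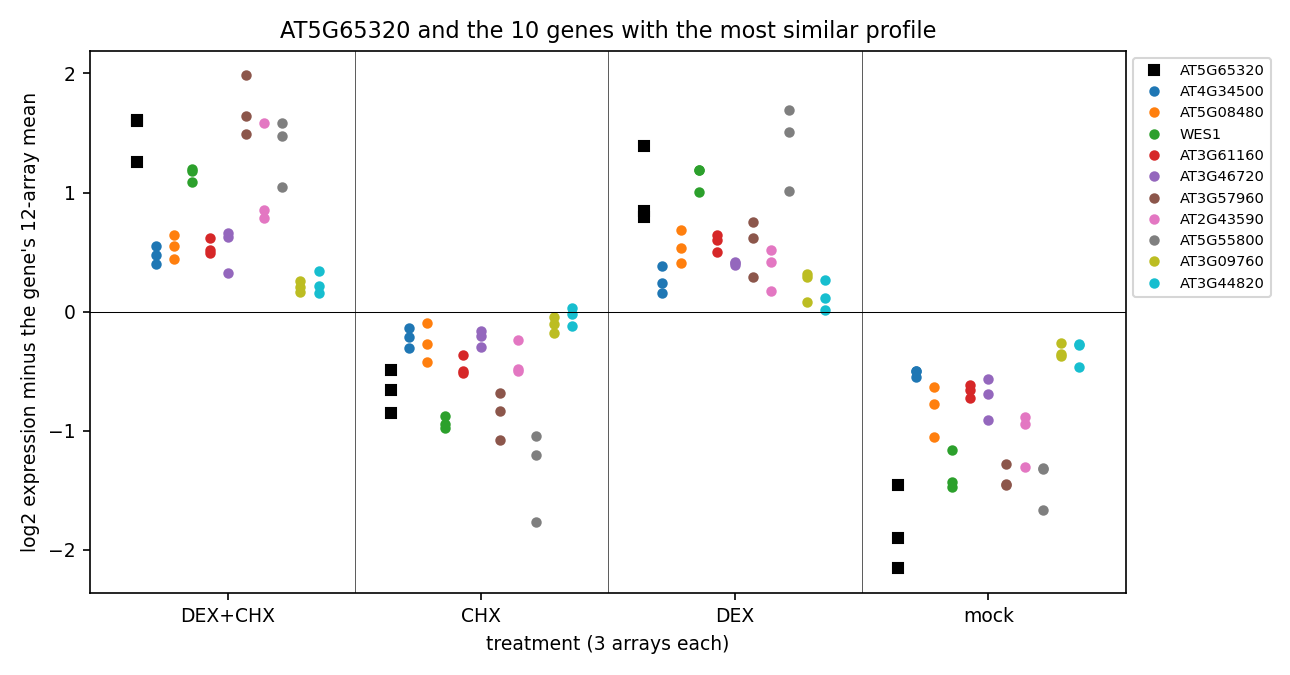
Log2 expression of AT5G65320 (black squares) and of the 10 genes with the highest correlation to it over the 12 arrays (coloured circles), each minus its own mean over the 12 arrays. Treatments run from DEX+CHX on the left to mock on the right, with 3 arrays each. Both DEX treatments lie above 0 for every gene drawn and the mock arrays lie below 0, which largely follows from choosing the genes by this correlation.

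For the relatives, the single most alike gene differed from member to member. For AT1G22490 it was AT3G22060 (r = 0.939), which stood at 2.84 for DEX against mock, 0.68 for DEX+CHX against CHX and 2.38 for CHX against mock. That gene, like AT1G22490, was high in every treatment but mock. For AT1G72210 it was FHL, which helps carry the light receptor phytochrome A into the nucleus (r = 0.992, 2.60 for CHX against mock). For AT4G01460 it was AT2G34910 (r = 0.984), for AT3G61950 AT5G22340 (r = 0.906), and for AT2G46810 IAA33, of the Aux/IAA family of auxin-response proteins (r = 0.970, -1.51 for CHX against mock).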

How the data were processed

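Biotin-labelled sense-strand targets from total RNA of 12 root samples were hybridised to Affymetrix arrays, 1 per sample. The deposited values are log2 expression per probe set, made with Affymetrix Expression Console 1.3 per the submitters' processing notes. How probe sets were summarized and normalized is not given in the sources used here. Their log2 scale was read from their range, 0.426 to 13.98, and nothing was normalized again. The platform annotation named 1 gene for 16722 of 38408 rows, several genes for 759, and none for 20927. The probe set with the highest mean was kept, giving 16550 genes.

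Limma 3.58.1 in R 4.3.3 fitted 1 mean per treatment over all 12 arrays. Tests were two-sided, with Benjamini-Hochberg adjustment over 16550 genes and a threshold of 0.05. Fold changes are antilogs of differences of mean log2 values. The fit was tested on simulated data. AT5G65320 is described with no test. One of CHX against mock had been laid down for it, but shares its mock arrays with the rise it was picked for. The members, lists and rules were chosen with earlier results of these data known. The list of root bHLH genes was added after the files were read. Named genes are all measured members, the lists, their neighbours in the TAIR10.1 RefSeq table and the most correlated genes, 10 for AT5G65320 and 1 per relative. Among bHLH genes named by RefSeq, the 3 largest called changes each way were to be named. ILR3 and the neighbours were chosen after values were seen.

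Deviations from the treatment mean correlated between same-numbered arrays of DEX+CHX and CHX (r = 0.244, 0.157 and 0.332 for replicates 1, 2 and 3). At each replicate number r was lower for CHX against mock (0.111, 0.077 and 0.211), DEX+CHX against DEX (0.0854, 0.0726 and 0.189) and DEX against mock (0.0728, 0.0533 and 0.227). Differently numbered arrays were not compared, so whether the numbers mark pairs was not tested. The main fit had no replicate block. The alternatives tried were a fit with the replicate block, quantile normalization, centring, leaving out dim genes or arrays, all rows, mean probe sets, a trended and robust variance, just the arrays compared, and stricter thresholds.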

Additional observations from a re-analysis of the deposited data

How the results depend on the processing

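In all, 679 values of single members, 109 counts of relatives and 114 counts of all genes were recomputed, and 656, 105 and 95 of these kept their direction, their call or their size. No called change was reversed. Stricter thresholds, the replicate block and leaving out an array outside a comparison keep the log2 change. So do all rows tested, a trended and robust variance, just the arrays compared and leaving out dim genes. Mean probe sets keep it too, because each measured member had 1 probe set. In all these settings only the call could differ, so they did not test the size or the direction of a member's change. A relative's change that was uncalled in both fits counted as kept even where its sign differed. The replicate block changed no call among the members, with AT1G22490 at 1.44 for DEX against mock and 315 genes called there. The 1 relative called for DEX against mock became 0 without replicate 3 of every treatment, where AT5G65320 stood at 3.15. The 4 relatives called for DEX+CHX against DEX became 2 in that setting and 2 with a fold minimum of 2. The count for the difference of the DEX effects became 1 with a trended and robust variance. Leaving out replicate 3 leaves fewer arrays and the fold minimum is a stricter rule, but the cause of these changes in count was not tested. No fit left out replicate 1 or replicate 2 of every treatment, so fewer arrays and the values of replicate 3 cannot be told apart. The 252 genes called for DEX against mock became 130 with just the arrays compared, 150 without mock replicate 3, 62 without replicate 3 of every treatment, 85 with a fold minimum and 120 at an adjusted p of 0.01. The 98 for DEX+CHX against CHX became 61 with just the arrays compared, 64 without CHX replicate 3, 62 without replicate 1 and 64 without replicate 2 of DEX+CHX, 27 without replicate 3 of every treatment, 51 with a fold minimum and 55 at an adjusted p of 0.01. For CHX against mock 9088 became 3833 with a fold minimum and 23040 with all rows tested, and for DEX+CHX against DEX 9235 became 3872 and 23549. For the difference of the DEX effects 21 became 53 with a trended and robust variance, 32 with all rows and 2 without replicate 3. The log2 difference of the DEX effects for AT5G65320 was -0.98 after quantile normalization. Leaving out dim genes removed AT3G61950, so the relatives were not counted there, and the difference of the DEX effects uses all arrays, so it had no fit with fewer groups. Values without a stated floor limit AT3G61950, SPCH, MUTE and FMA.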
